A study of Rattus norvegicus with 11 samples.

Results

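The genes of glycogen synthesis and breakdown were described in liver RNA of rats given the veterinary antibacterial mequindox and of control rats. The members were 9 genes, chosen by name with earlier results of the same comparison known, and 8 of them had at least 1 probe set with that single gene symbol in the platform annotation, 10 probe sets in all, out of 14217 genes with a single symbol on the array. Expression of Ppp1r3c was not analysed here, since no probe set carried its single symbol, and it enters through its promoter window alone. Each gene's representative probe set was chosen by its measured signal, as the brightest over the 11 arrays. For Ppp1r3b the chosen and the other probe set had a mean log2 signal of 10.93 and 7.18, and for Pgm1 of 11.73 and 10.75.

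The study measured 11 Wistar rats, 1 Affymetrix array per animal, in 2 groups: 3 control animals (numbers 1, 2 and 9) and 8 high-dosed animals (numbers 2, 3, 4, 5, 6, 8, 10 and 11), which received mequindox, a quinoxaline dioxide drug. The labels give an age of week 9 for all animals except high-dosed animal 8, of week 10, and give neither the dose in units of mass nor the length of treatment. The groups were picked for arrays using metabolite profiles of aqueous liver extracts and clinical chemistry, so with other outcomes of the animals known. Equal numbers in the groups do not mark the same animal.

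Glycogen is the branched glucose polymer that the liver fills after meals and empties between them to hold blood glucose. Glycogen synthase (Gys2 in liver) adds glucose from UDP-glucose, which Ugp2 makes from the phosphorylated glucose that Pgm1 supplies, and Gbe1 sets the branches. Glycogen phosphorylase (Pygl) removes glucose again after phosphorylase kinase, of which Phkb is a regulatory subunit, has switched it on. Ppp1r3b and Ppp1r3c tether protein phosphatase 1 to the glycogen particle, where it activates the synthase and inactivates the phosphorylase, and Slc37a4 carries glucose phosphate into the endoplasmic reticulum, where it is cleaved to free glucose.

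Of the 8 members measured, 2 rose (Ugp2 and Slc37a4), 2 fell (Ppp1r3b and Pgm1) and 4 did not pass (Gys2, Pygl, Gbe1 and Phkb) at an adjusted p below 0.05 in limma. Over all genes tested 10.6% were called, 7.91% as higher and 2.74% as lower in the high-dosed animals. Since the members were listed with results of this comparison known, the count is a description and not independent evidence about glycogen genes. Their median log2 fold change was -0.07, against 0.02 over the 10714 genes tested, and 3 lay above 0 and 5 below. The groups did not overlap for the same 4 members that were called, while 12.1% of all genes tested did not overlap, 8.69% as higher and 3.37% as lower. All 8 members passed the filter on dim probe sets.

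The arrays looked like liver in both groups. All 15 hepatocyte markers with a probe set passed the filter, none of their chosen probe sets was below an intensity of 3214 on any array, and their summed intensity ran from 313892 to 315067 in controls and from 309163 to 321896 in high-dosed animals, with 1 marker higher, 1 lower and 13 that did not pass. High-dosed animal 11 stood apart for skeletal muscle markers, with a summed intensity of 7916 against 715 to 1095 on the other 10 arrays, and was the highest array for 7 of 9 probe sets. Without it the same count of 4 members was called, with log2 fold changes of -1.50 (Ppp1r3b), -0.32 (Pgm1), 0.57 (Ugp2) and 0.54 (Slc37a4). Endothelial markers (summed intensity 12772 to 14029 in controls and 14675 to 15950 in high-dosed animals; 3 of 8 rose, 0 fell, 6 higher and 0 lower at an unadjusted p below 0.05) and cholangiocyte markers (717 to 871 and 1064 to 1746; 1 of 2 tested rose, 0 fell, 1 higher and 0 lower at an unadjusted p below 0.05) were higher without overlap. Macrophage markers overlapped (26898 to 34242 and 32804 to 43557; 1 of 11 rose, 0 fell by limma, 5 higher and 0 lower at an unadjusted p below 0.05), as did stellate cell markers (9756 to 10940 and 9416 to 14523; 0 of 8 called by limma, 2 higher at an unadjusted p below 0.05) and blood cell markers (8940 to 13329 and 9990 to 19804; 0 of 4 called by limma, 0 at an unadjusted p below 0.05). The cholangiocyte sum covers 5 genes, of which Krt19, Krt7 and Cftr lay under the filter. Of the 2 tested, Epcam rose (log2 fold change 0.83, limma adjusted p = 0.00544) and Spp1 did not pass (0.18, limma adjusted p = 0.362). Among all genes tested, 7.91% were called higher and 2.74% lower. The share of all genes at an unadjusted p below 0.05 is not given here, so counts at that cut only describe each list. No marker probe set was listed at 0. The part of these cell types in the results below was not tested, and in whole tissue fewer cells of a type and less RNA per cell cannot be told apart.

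**Figure D1:**
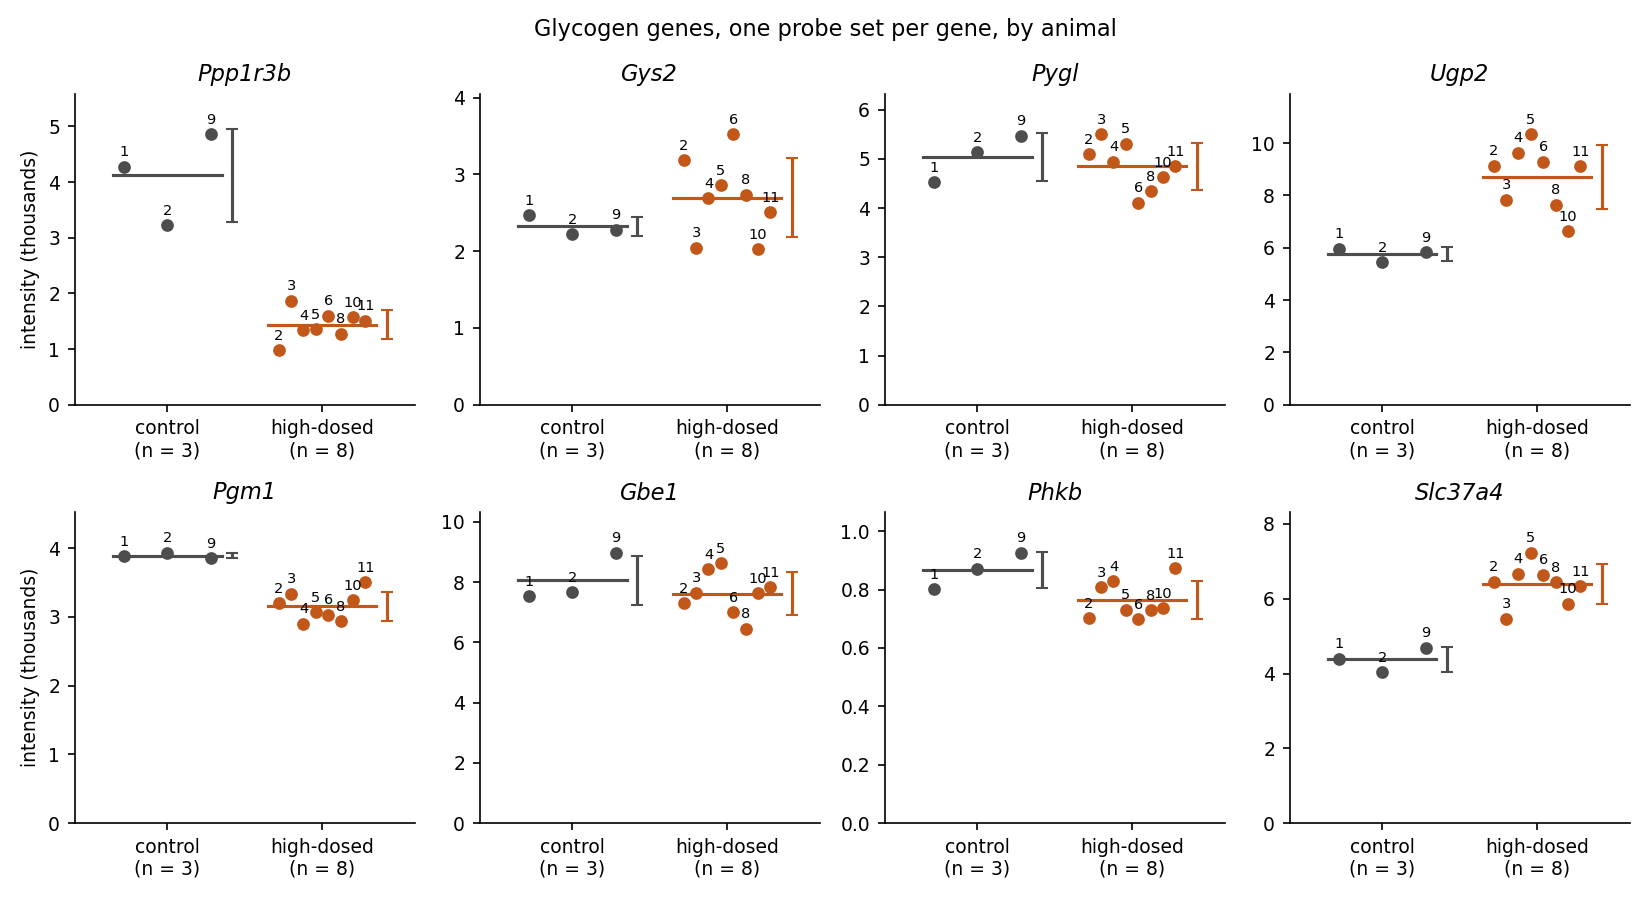
Intensity on a linear axis, scaled down as its label states, of the 8 measured glycogen genes in each animal, with the animal's number above its point; horizontal lines are group means and bars are 1 SD (3 control and 8 high-dosed animals). Ppp1r3b and Pgm1 lie below all controls in all 8 high-dosed animals, Ugp2 and Slc37a4 above all controls, and the other 4 genes overlap.

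Ppp1r3b, the phosphatase tether that is prominent in liver, had the largest difference among the members. Its intensity was 4277, 3221 and 4863 in controls 1, 2 and 9. In the high-dosed animals it was 974 at the lowest (animal 2), 1429 at the median and 1867 at the highest (animal 3). Every high-dosed animal was below every control, and the gap between the lowest control and the highest high-dosed animal, 0.77 on the log2 scale, was larger than the range within the controls (0.59) and smaller than that within the high-dosed animals (0.90). The gene fell by 1.49 ± 0.16 (log2 scale, SE, 3 control and 8 high-dosed animals), which is 2.80-fold lower (limma adjusted p = 0.000354). It ranked 8 among all genes tested by the size of its fall, and it was 1 of the 40 genes, 0.373% of those tested, that were called with at least a 2-fold change. Leaving out 1 animal at a time gave log2 fold changes from -1.65 to -1.36.

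The other Ppp1r3b probe set was dim, with 145, 118 and 196 in controls 1, 2 and 9, and its mean lay under the filter. It ran from 50.5 to 91.7 in the high-dosed animals, with a median of 74.0, so here too every high-dosed animal was below every control. The same animals stood at the ends: control 9 was highest and high-dosed animal 2 lowest on both probe sets. Its log2 fold change was -0.70 with the pseudocount added to all values and -1.08 without it, against -1.49 and -1.52 for the bright probe set. In the fit with no filter on dim probe sets it was called (limma adjusted p = 0.00614).

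Pgm1, which interconverts the phosphate esters of glucose on the way into and out of glycogen, was lower by a smaller amount, and its controls were tightly grouped. Its intensity was 3884, 3936 and 3858 in controls 1, 2 and 9. The high-dosed animals ran from 2904 (animal 4) through a median of 3133 to 3509 (animal 11), all below the lowest control. It fell by 0.30 ± 0.059 on the log2 scale, 1.23-fold (limma adjusted p = 0.00803). The second Pgm1 probe set, which passed the filter, was also without overlap, at 1912 to 2143 in controls and 1435 to 1752 in high-dosed animals, with a log2 fold change of -0.38 (limma adjusted p = 0.00833 when all probe sets were tested). The call of the first probe set was lost when arrays were centred on the median of all probe sets (-0.26, limma adjusted p = 0.0829), and was kept when they were centred on the median of the probe sets tested (-0.32, limma adjusted p = 0.0297).

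Ugp2, which makes the UDP-glucose that the synthase uses, was higher. Its intensity was 5968, 5448 and 5829 in controls 1, 2 and 9. In high-dosed animals it ran from 6620 (animal 10) through a median of 9125 to 10342 (animal 5). All 8 high-dosed animals were above all controls, but animal 10 stood close, 0.15 above the highest control on the log2 scale, while the high-dosed animals spanned 0.64. Ugp2 rose by 49.6% (log2 fold change 0.58 ± 0.11, SE, limma adjusted p = 0.00684). Leaving out high-dosed animal 10 gave 0.64, and leaving out any 1 animal gave 0.54 to 0.64.

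Slc37a4, the transporter that brings glucose phosphate to the site of its cleavage, was higher by a similar amount. Its intensity was 4401, 4042 and 4686 in controls 1, 2 and 9. High-dosed animals ran from 5465 (animal 3) through a median of 6451 to 7234 (animal 5), all above the highest control. Slc37a4 rose by 45.2% (log2 fold change 0.54 ± 0.074, SE, limma adjusted p = 0.00139). High-dosed animal 5 was thus the highest for both Ugp2 and Slc37a4.

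To show the sequence near their starts, promoter windows are given for the members that passed the test and had one. They run from 250 bases before to 50 after a gene's start, for Ugp2 and Slc37a4, which rose, and Pgm1, which fell. The windows are from RefSeq, build GRCr8, 5′ to 3′ on the gene's strand. Capitals mark the letters GGGCGG or their reverse complement CCGCCC, the core of a GC box. Of the 9 members 8 had a promoter window, Ppp1r3b being the one that did not, although its gene identifier matched RefSeq. For the 2 members with more than 1 window, the one nearest to the RefSeq gene start was taken.
Ugp2, chr14:99697953-99698252, minus strand: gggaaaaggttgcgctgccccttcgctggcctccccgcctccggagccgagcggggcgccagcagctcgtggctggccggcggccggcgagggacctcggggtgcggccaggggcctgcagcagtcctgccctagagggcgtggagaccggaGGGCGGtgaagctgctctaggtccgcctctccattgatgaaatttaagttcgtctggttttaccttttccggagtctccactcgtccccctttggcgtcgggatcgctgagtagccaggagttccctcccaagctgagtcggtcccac
Slc37a4, chr8:53619775-53620074, plus strand: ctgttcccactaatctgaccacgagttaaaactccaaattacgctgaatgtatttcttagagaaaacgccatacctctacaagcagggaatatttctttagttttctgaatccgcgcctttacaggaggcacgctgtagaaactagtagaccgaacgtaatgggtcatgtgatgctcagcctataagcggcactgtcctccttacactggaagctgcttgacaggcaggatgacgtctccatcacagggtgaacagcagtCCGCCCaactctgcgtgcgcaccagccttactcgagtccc
Pgm1, chr5:119710484-119710783, plus strand: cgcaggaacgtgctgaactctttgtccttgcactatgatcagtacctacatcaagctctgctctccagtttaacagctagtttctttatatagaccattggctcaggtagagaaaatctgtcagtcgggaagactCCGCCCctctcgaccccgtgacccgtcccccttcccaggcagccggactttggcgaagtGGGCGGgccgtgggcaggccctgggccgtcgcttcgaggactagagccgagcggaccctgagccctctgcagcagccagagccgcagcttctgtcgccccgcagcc

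The Ugp2 window held 66.7% G and C with 25 CpG, the Pgm1 window 60.3% with 19 and the Slc37a4 window 49.3% with 14, against medians of 51.7% and 7 over all 33469 windows. The GC box letters were found once in Ugp2, once in Slc37a4 and at 2 places in Pgm1. The other Slc37a4 window in RefSeq held 64.3% G and C, 20 CpG and 3 matches of the GC box letters, so its share of G and C lay above the median of all windows, not under it. They were in 6 of the 8 member windows and in 33.1% of all windows, and CCAAT in 2 of 8 and 37.5%; both motifs were added after the windows had been read. Searched on both strands, CACGTG (E-box) was in the Ppp1r3c window alone among members and in 6.42% of all windows. TTATGTAA (D-box, 0.893% of all windows), TAGGTCA (ROR element, 2.63%), TGTTTAC (FOXO element, 3.78%) and TGACGTCA (cAMP element, 1.83%) were in 0 of the 8 member windows. These are matches of letters within 300 bases and say nothing of binding.

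Gys2, the liver glycogen synthase itself, was not called, and its high-dosed animals were spread widely. Its intensity was 2465, 2224 and 2280 in controls 1, 2 and 9. High-dosed animals ran from 2022 (animal 10) through a median of 2711 to 3524 (animal 6). None of the 8 lay inside the control range: 6 were above all controls and 2, animals 3 and 10, below all of them. The SD of its log2 signal was 0.28 in the high-dosed animals and 0.076 in controls, and the log2 fold change was 0.19 ± 0.14 (SE, limma adjusted p = 0.454), with a 95% interval of the difference from -0.12 to 0.50.

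Pygl, the liver glycogen phosphorylase, differed little between the group means. Its intensity was 4521, 5132 and 5474 in controls 1, 2 and 9, and ran from 4111 (animal 6) through a median of 4898 to 5504 (animal 3) in high-dosed animals, 5 of which lay inside the control range. Its log2 fold change was -0.06 ± 0.086 (SE, limma adjusted p = 0.712), with a 95% interval from -0.24 to 0.13, so a change of the size of that of Ugp2 lies outside the interval and a small one does not. Its sign turned without control 9 (0.0031).

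Gbe1, the branching enzyme, overlapped in the same way. Its intensity was 7521, 7661 and 8977 in controls 1, 2 and 9, and ran from 6448 (animal 8) through a median of 7640 to 8628 (animal 5) in high-dosed animals, with 5 inside the control range and 3 below it. Its log2 fold change was -0.08 ± 0.082 (SE, limma adjusted p = 0.58, 95% interval -0.26 to 0.10).

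Phkb, a regulatory subunit of the kinase that activates the phosphorylase, was the dimmest of the chosen probe sets. Its intensity was 801, 872 and 927 in controls 1, 2 and 9, and ran from 698 (animal 6) through a median of 734 to 873 (animal 11) in high-dosed animals. Of the high-dosed animals 7 were below the control mean, 5 below all controls and 3 inside their range. Its log2 fold change of -0.17 ± 0.079 did not pass (SE, limma adjusted p = 0.189), and its 95% interval ran from -0.34 to -0.0022.

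**Figure D2:**
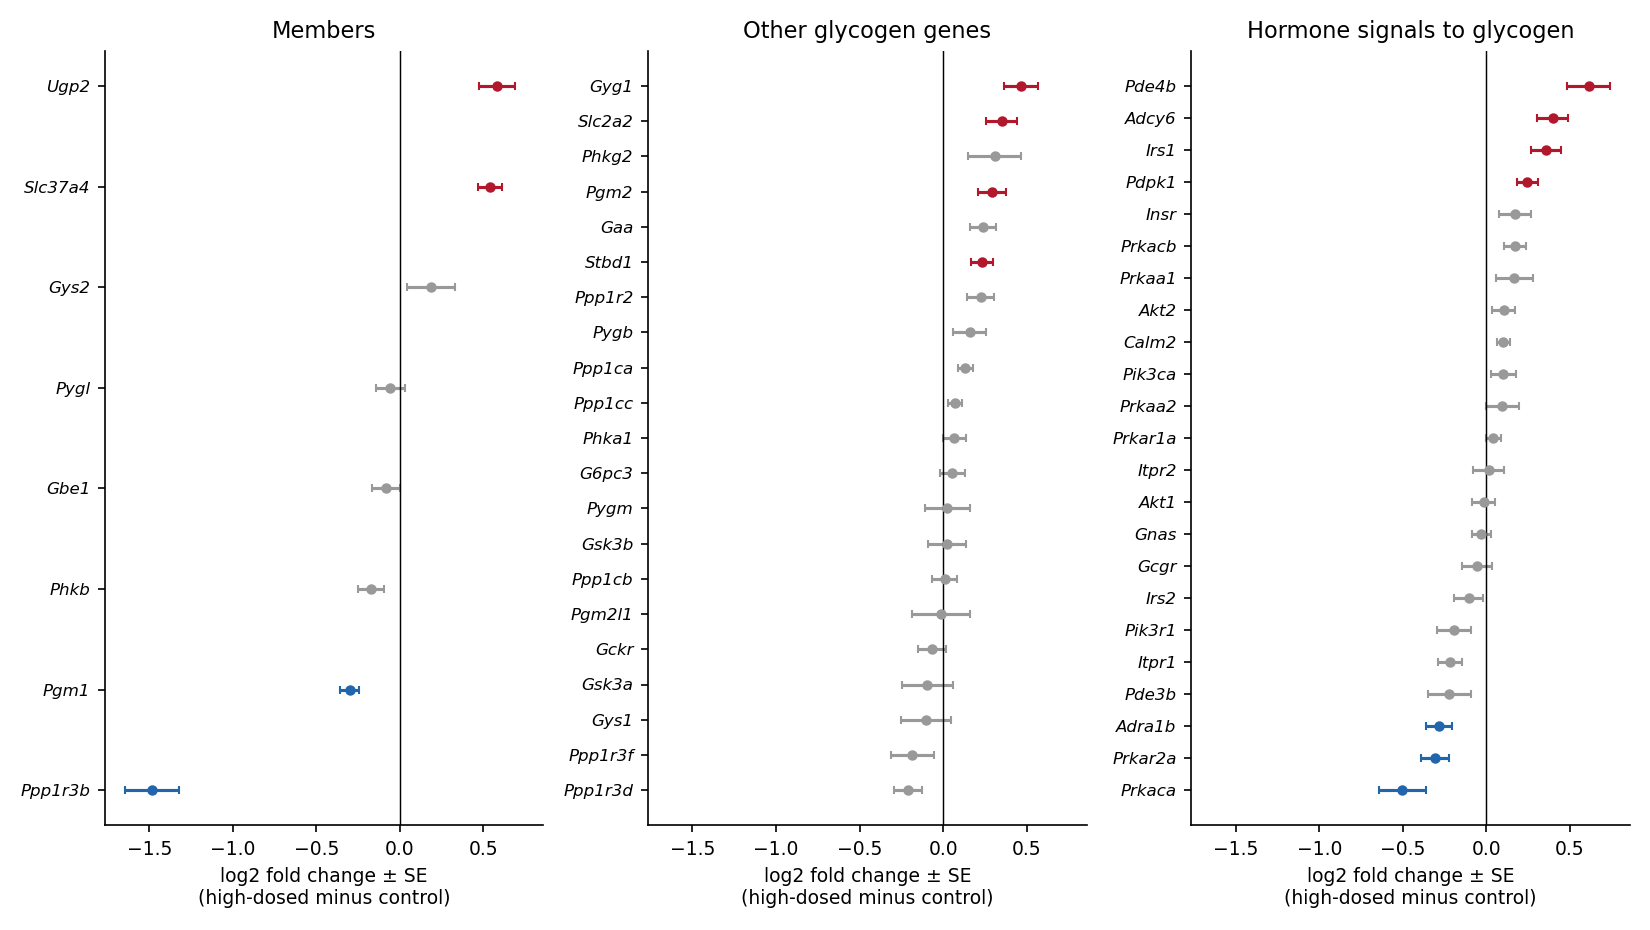
Log2 fold change of high-dosed against control animals, with 1 SE, for the 8 members, 21 other glycogen genes and 23 genes of hormone signals to glycogen (3 control and 8 high-dosed animals; red rose, blue fell, grey did not pass). Ppp1r3b at -1.49 is the farthest from 0 of all genes shown.

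Within the high-dosed group, the called members did not all have the same animal nearest to the control mean. That animal was number 3 for Ppp1r3b and Slc37a4, number 10 for Ugp2 and number 11 for Pgm1. Over the 8 high-dosed animals, 28 pairs of members were compared. The highest correlation was that of Ugp2 with Slc37a4, with Pearson's r = 0.76 (exact permutation p = 0.0279, adjusted p = 0.415) and Spearman's rho = 0.88 (exact permutation p = 0.00724, adjusted p = 0.203), two-sided. Without animals 10 and 8, the farthest from the median of Ugp2, r was 0.99. The correlation of Gys2 with Slc37a4 was 0.75 (Spearman's rho 0.71, exact permutation p = 0.0297 and 0.0576, adjusted p = 0.415 and 0.449). It was 0.15 without animals 10 and 3 and 0.70 in the high-dosed animals numbered 6 and below. Animals 10 and 3 had the lowest Gys2 signal, so leaving them out also narrows its range. None of the 28 pairs passed the adjustment, which over 8 animals cannot show that members did not move together.

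Outside the members, the genes whose signal followed Ppp1r3b and Gys2 most closely were found by Pearson's correlation over the 11 arrays after each group's mean had been subtracted. As a description over 11 arrays that share their scaling, and as the highest of all genes tested, those for Ppp1r3b were Edil3 (0.90), Hacd2 (0.87) and Zc3h11a (0.86). Their log2 fold changes were 0.17, -0.07 and 0.14 and none of the 3 was called. Those for Gys2 were Fbxo21 (0.93), Rhbdd2 (0.93) and Hagh (0.92), of which Rhbdd2 rose (log2 fold change 0.46 ± 0.13, SE, limma adjusted p = 0.0411).

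On a list of other genes of the pathway, with 33 symbols, 26 had a probe set of their own and 21 passed the filter; by limma 4 of the 21 rose, 0 fell and 17 did not pass (7 higher and 1 lower at an unadjusted p below 0.05), with 15 above 0, 6 below and a median log2 fold change of 0.07. Over all genes tested 7.91% were called higher and 2.74% lower, and the median was 0.02. The share of all genes at an unadjusted p below 0.05 is not given here, so the counts at that cut only describe the list. Gyg1, encoding glycogenin, the protein primer of glycogen, rose by 0.46 ± 0.10 on the log2 scale (SE, limma adjusted p = 0.0143). Its intensity was 585, 677 and 634 in controls 1, 2 and 9 and 748 to 1168 in high-dosed animals, without overlap. High-dosed animal 11, which also had the highest muscle marker sum, was the highest, and without it the value was 0.41 (limma adjusted p = 0.00789). The call of Gyg1 was lost without control 1 (0.41, limma adjusted p = 0.0926).

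Slc2a2, the glucose transporter of the hepatocyte surface, rose by 0.35 ± 0.091 (SE, limma adjusted p = 0.0306). Control 9, at 9344, lay within the high-dosed range of 8744 to 11162, while controls 1 and 2 were at 7221 and 6893, so the groups overlapped. Its call was lost without control 1 or 2 or high-dosed animal 5 (limma adjusted p = 0.168, 0.137 and 0.0508). Pgm2, a second phosphoglucomutase (0.29, limma adjusted p = 0.043), and Stbd1, a glycogen-binding protein (0.23, limma adjusted p = 0.045), were called by a narrow margin. Of 25 other settings Pgm2 lost its call in 15 and Stbd1 in 17, among them the settings without a filter and after quantile normalization. Without control 1, 1 gene of the list was called, without control 2 also 1, and without control 9 or any 1 of high-dosed animals 4, 5, 6, 8, 10 and 11, 2 were called.

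Some genes of the list that did not pass had groups without overlap, named here after their values were seen. Gaa, the lysosomal enzyme that digests glycogen, was at 1198 to 1378 in controls and 1442 to 1860 in high-dosed animals (log2 fold change 0.24 ± 0.078, SE, limma adjusted p = 0.0684). Ppp1ca, a catalytic subunit of the phosphatase that Ppp1r3b tethers, was at 3554 to 3631 and 3698 to 4228 (0.13 ± 0.045, SE, limma adjusted p = 0.0792). Ppp1r3d, another tether of the same family, was at 194 to 212 and 141 to 188 (-0.21 ± 0.083, SE, limma adjusted p = 0.133). Its other probe set had the opposite sign, at 0.06. High-dosed animals 8, 10 and 11 were lowest for Ppp1r3d, at 154, 148 and 141, and their arrays also had the lowest median intensity. The probe sets of G6pc1, the glucose phosphatase, carried several symbols, so that gene is not reported.

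Glucagon, adrenaline and insulin set the balance of synthesis and breakdown through receptors, cyclic AMP and kinases. Of 27 symbols on a list of these signals 25 had a probe set of their own and 23 were tested; 4 rose, 3 fell and 16 did not pass, with a median log2 fold change of 0.04. Over all genes tested 10.6% were called, 7.91% higher and 2.74% lower, and the median was 0.02. The rises were Pde4b, a cyclic AMP phosphodiesterase (0.61 ± 0.13, SE, limma adjusted p = 0.011), Adcy6, an adenylyl cyclase (0.40, limma adjusted p = 0.021), Irs1, an insulin receptor substrate (0.36, limma adjusted p = 0.0277), and Pdpk1, a kinase upstream of Akt (0.25, limma adjusted p = 0.0297). Pde4b was at 313 to 372 in controls and 445 to 721 in high-dosed animals, without overlap. Its call was lost in 1 of 25 other settings, without control 1 (limma adjusted p = 0.0776). With the mean of all its probe sets the log2 fold change was 0.39, and the call was kept (limma adjusted p = 0.016). Irs1 was dim in controls (mean log2 signal 7.15, with the filter at 7.40), so the size of its rise is less certain. Its mean was 7.51 in high-dosed animals, so it entered the test only through the group in which it was higher. A stricter filter left it untested. When no probe set was filtered out it was called (limma adjusted p = 0.0285). It lost its call in 5 of the 24 other settings that tested it.

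The falls were Prkaca (-0.50 ± 0.14, SE, limma adjusted p = 0.0392), Prkar2a (-0.31, limma adjusted p = 0.0374) and Adra1b (-0.28, limma adjusted p = 0.0374). Prkaca is a catalytic and Prkar2a a regulatory subunit of protein kinase A, and Adra1b is an adrenergic receptor. Of the kinase's other subunit genes tested, catalytic Prkacb (0.17, limma adjusted p = 0.123) and regulatory Prkar1a (0.04, limma adjusted p = 0.622) did not pass. Prkaca was at 726, 895 and 536 in controls 1, 2 and 9 and 390 to 589 in high-dosed animals, so control 9 lay among them. Of 25 other settings Prkaca lost its call in 8 and Adra1b in 10. Prkar2a lost its call in 10 with its sign kept, and its sign turned in 1. None of these falls was called without control 1, without control 2 or after median centring over all probe sets. Under that centring the limma adjusted p was 0.0706 (Prkaca), 0.142 (Prkar2a) and 0.0973 (Adra1b). Other probe sets of 2 of the 7 called genes had the opposite sign, at 0.51 for Prkar2a and -0.15 for Adcy6. The second probe set of Pdpk1 was at 0.03, and with the mean of all probe sets of a gene neither Pdpk1 (0.14, limma adjusted p = 0.233) nor Adcy6 (0.12, limma adjusted p = 0.508) was called. The glucagon receptor Gcgr (-0.06 ± 0.090, SE, limma adjusted p = 0.724, and 0.021 without control 1) and the insulin receptor Insr (0.17 ± 0.095, SE, limma adjusted p = 0.286) did not pass. Without control 1 Adcy6 alone of this list was called, without control 2 there were 2, without control 9 there were 3 and without high-dosed animal 6 there were 4.

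**Figure D3:**
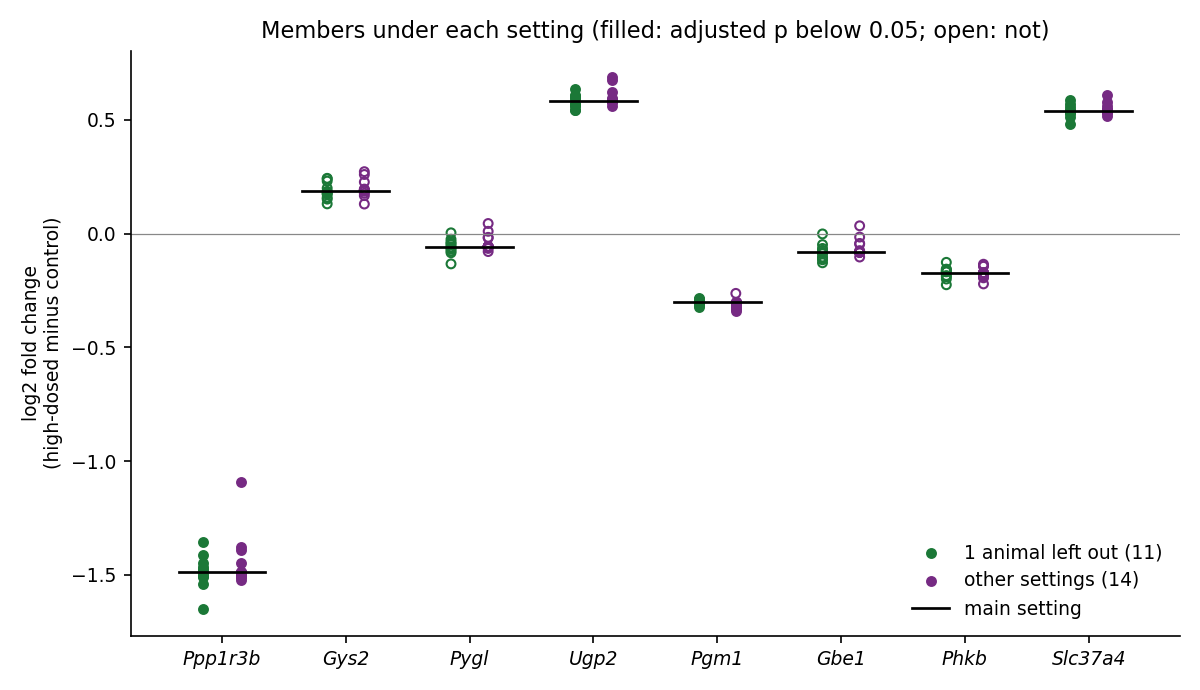
Log2 fold change of each of the 8 members in the main setting (black line), with each of the 11 animals left out in turn (green) and under 14 other settings (purple); filled points had an adjusted p below 0.05 and open points did not. Ppp1r3b, Ugp2 and Slc37a4 are filled throughout, Pgm1 has 1 open point at -0.26, and the points of Gys2, Pygl, Gbe1 and Phkb are all open.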

How the data were processed

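Liver RNA was measured on 11 arrays (3 control, 8 high-dosed animals), extracted with Trizol and biotin-labelled per the labels' protocols. The deposited values are the intensity of each of 31099 probe sets on a linear scale, from 1 to 34328; MAS5 was used, per the submitters' processing notes, with version, role and scaling between arrays not given in the sources used here. Median intensity per array ran from 149 to 187, and was lowest in high-dosed animals 8, 10 and 11 (149, 153 and 149). Arrays have no sequencing depth, and their number limits the precision. No 2 arrays held identical values.

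Values were transformed as log2(intensity + 55.26), the pseudocount being the 20th percentile of all values, so fold changes of dim genes are understated. Left out were 57 Affymetrix control probe sets and those whose mean log2 signal was below 7.40, the 40th percentile. Gene symbols came from the platform annotation; all 10 member probe sets matched RefSeq gene identifiers of assembly GRCr8. The table names no genome build.

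Groups were compared with limma 3.58.1 in R 4.3.3 (linear model, two-sided, eBayes with a trend of variance on signal, Benjamini-Hochberg over 10714 genes, 1 probe set each), checked on simulated data. Named were all members, called genes of 2 pathway lists, a few genes whatever they did (G6pc1, Gyg1, Slc2a2, Gcgr and Insr; others of these are not reported here), and the 3 genes most like Ppp1r3b and Gys2. Members and lists were chosen with earlier results of these data known. Alternatives varied the pseudocount, filter, scaling, variance model, array weights, probe set per gene, unit of the test, animals included and animal number as a covariate.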

Additional observations from a re-analysis of the deposited data

Results flagged for a closer look

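Among 26 probe sets examined for 1 animal far from the other high-dosed animals, 3 had such an animal by Dixon's criterion, which chance meets in about 1 of 20 groups. Gyg1 was at 10.26 on the log2 scale in high-dosed animal 11, and the next animal was at 9.93. Adcy6 was at 9.96 in high-dosed animal 6, and the next animal was at 9.63. Gaa was at 10.90 in high-dosed animal 2, and the next animal was at 10.65; without that animal Gaa passed the test (log2 fold change 0.20, limma adjusted p = 0.0318). None of the 10 member probe sets had such an animal.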

How the results depend on the processing

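Ppp1r3b, Ugp2 and Slc37a4 kept their direction and their call in all 25 other settings, with log2 fold changes from -1.65 to -1.09, 0.54 to 0.69 and 0.48 to 0.61 and highest limma adjusted p of 0.0107, 0.033 and 0.0127. Pgm1 (-0.34 to -0.26) lost its call in 1, median centring over all probe sets (limma adjusted p = 0.0829), where 3 members were called. Gys2, Pygl, Gbe1 and Phkb were called in none. With 1 animal left out Pygl ranged from -0.13 to 0.0031 and Gcgr from -0.15 to 0.021. Signs turned for Pygl with array weights (0.0098), without control 9 (0.0031) and in animals numbered 6 and below (0.044), for Gbe1 in the last (0.034), for Gcgr without control 1 (0.021) and for Prkar2a with the mean of all probe sets (0.080). Of other glycogen genes 2 were called with no filter, quantile normalization, either median centring, all probe sets tested, without high-dosed animals 8, 10 and 11 and in animals numbered 6 and below, and 1 to 5 with 1 animal left out. Of hormone signal genes 3 were called with either median centring, without high-dosed animals 8, 10 and 11 and in animals numbered 6 and below, 4 with the mean of all probe sets and 1 to 9 with 1 animal left out. Over all genes 325 (without control 1) to 1406 were called with 1 animal left out, against 1141, and 759 without control 2, 716 without high-dosed animals 8, 10 and 11, 612 in animals numbered 6 and below and 731 with centring over the probe sets tested, a setting chosen after seeing the data. The calls split into 847 higher and 294 lower as deposited, 589 and 333 after quantile normalization, 703 and 147 after median centring over all probe sets and 473 and 258 over those tested. The causes of these shifts were not tested. No paired analysis was possible because the groups share 1 animal number, which does not mark a shared animal.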

Other observations

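High-dosed animal 11 carried signal of skeletal muscle genes on a liver array. The skeletal actin gene Acta1 was at an intensity of 2926 there and at 33.6 to 50.9 on the other 10 arrays. Myoglobin (Mb) was at 809 against 24.4 to 37.3, the fast troponin Tnni2 at 1805 against 294 to 497, and the myosin Myh2 at 652 against 40.4 to 57.9. Myh4, another myosin, was at 33.4, within the 27.5 to 48.2 of the others. Most of these probe sets lay under the filter, so they were not part of the test over all genes.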
